A study of Mus musculus with 160 samples.

Results

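Gata3-GFP+ hematopoietic cells (HCs) were compared with Gata3-GFP+ endothelial cells (ECs) sorted from the aorta-gonad-mesonephros (AGM) region of mouse embryos at E10.5 (embryonic day). The comparison rests on 39 of the 160 pools of the series, 20 HC pools and 19 EC pools, each made from 20 cells. They were chosen by their sorted population and by 4 limits on library quality, which were over 500000 counts on genes and spike-in RNAs, over 20% of reads on genes, under 20% mitochondrial counts and under 20% spike-in counts. A single Gata3-GFP+ EC pool, with 48731 counts on genes and 86.7% of its counts on the spike-in, fell outside them.

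The whole series holds 8 populations of 20 pools, from E10.5 and E11.5 AGMs. All embryos carried 1 Gata3 allele with a GFP knock-in (genotype Gata3-GFP +/-), the GFP- populations included, so GFP reads out activity of the Gata3 locus and the controls share the knock-in. ECs were gated as GFP+ Cdh5+ CD41- CD45-, and HCs as GFP+ cells carrying CD41 or CD45. According to the series' design text the HC gate reads CD41+ CD45+, while the sample names join both markers, and the cells of each gate came from several biological replicates of pooled GFP+ embryos, which the labels do not tie to single pools. The p-values below therefore cover the spread between pools and not the spread between biological replicates.

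Definitive hematopoietic stem cells arise in the AGM from hemogenic ECs in the wall of the dorsal aorta, which lose endothelial junctions and take up a blood program in the endothelial-to-hematopoietic transition (EHT). SoxF factors and Notch signaling mark the arterial endothelium from which these cells come, Runx1 is required for the transition itself, and Gfi1 and Gfi1b help to shut down endothelial genes. CD41, the product of Itga2b, is found on early hematopoietic progenitors as well as on megakaryocytes and platelets, and CD45, the product of Ptprc, on nearly all nucleated blood cells other than the erythroid series, so that a gate on either protein can hold progenitors, macrophages and megakaryocytic cells alike.

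RNA was read by Smart-seq2, a full-length method, with ERCC spike-in RNAs. Counts on genes ran from 1460179 to 16004756 per HC pool (median 3180193) and from 1400824 to 6006894 per EC pool (median 3685639). The log2 ratio of gene to ERCC counts was 6.77 ± 0.434 (SD, n = 20) in HC pools and 5.95 ± 0.443 (SD, n = 19) in EC pools. That difference of 0.822 gave p = 2e-05, the smallest value that 100000 resamples of a two-sided permutation test can give (4e-05 adjusted over 2 tests). The number of genes with at least 10 counts was 12614 ± 1279 in HC pools and 12275 ± 846 in EC pools, a difference of 338 that was not larger than the spread between pools (two-sided permutation test, 100000 resamples, p = 0.351). There were 4 pools that stood apart. Of these, 2 HC pools held a summed level of sympathetic and neural crest markers above 1000 CPM (counts scaled to library size), at 1419 and 2631, 1 EC pool held mesenchymal markers at 4320 CPM, and 1 EC pool had 8.71% of its reads assigned to more than 1 gene against at least 14.1% in the other EC pools. Results are given without them where that changed the call of a gene described below, and the count of a list's called genes where leaving out all 4 changed it.

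Levels are CPM scaled by the trimmed mean of M values (TMM), and log2 fold changes are HC over EC, so that positive values are higher in HCs. A gene was called at an adjusted p under 0.01 (edgeR quasi-likelihood test, Benjamini-Hochberg over all genes tested) and a log2 fold change beyond 0.1. Of 16266 genes tested, 3543 were called higher in HCs (21.8%) and 3111 higher in ECs (19.1%), and 1407 (8.65%) and 1081 (6.65%) of them also passed a 4-fold difference. The median log2 fold change of all genes was 0.06. Scaling to ERCC totals in place of TMM moved that median to 0.78 and the called genes to 7111 higher in HCs and 1272 higher in ECs, or from 53.2% to 84.8% higher in HCs. In 210 genes (1.29%) every HC pool lay above every EC pool, and in 501 genes (3.08%) every EC pool lay above every HC pool. A level per pool does not separate fewer cells expressing a gene from less RNA per cell.

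The genes behind the gate followed it, and since their proteins chose the cells, their values check the labels and are no finding. Cdh5 (ENSMUSG00000031871, chr8:104101625-104144511 of GRCm38, plus strand), which encodes VE-cadherin of the endothelial adherens junction, had 3.95 to 28.3 CPM in HC pools (median 9.2) and 721 to 1676 CPM in EC pools (median 1006) (log2 fold change -6.57 ± 0.21 SE, adjusted p = 6.46e-27). The groups did not overlap. Ptprc (ENSMUSG00000026395, chr1:138062861-138175708 of GRCm38, minus strand), which encodes CD45, had 4.21 to 337 CPM in HC pools (median 197) and 0.656 to 26 CPM in EC pools (median 2.95) (log2 fold change 5.24 ± 0.42 SE, adjusted p = 5.5e-14). A single HC pool, described further below, lay within the EC range, and the other 19 HC pools exceeded the highest EC pool. Itga2b, which encodes the CD41 integrin chain, had 8.97 to 1278 CPM in HC pools (median 224) and 0 to 13.9 CPM in EC pools (median 2.54) (log2 fold change 6.11 ± 0.54 SE, adjusted p = 8.03e-13), with 2 HC pools below the highest EC pool. Spn, which encodes CD43, a surface protein of later hematopoietic precursors, had a median of 0.787 CPM in HC and 0.8 CPM in EC pools and was not called (adjusted p = 0.727).

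Gata3 itself, which encodes a zinc finger transcription factor, differed by less than Cdh5, Ptprc and Itga2b between the populations sorted on its reporter. Its RNA (ENSMUSG00000015619, chr2:9857078-9890034 of GRCm38, minus strand) had 11.8 to 143.5 CPM in HC pools (median 42) and 27.2 to 168 CPM in EC pools (median 76.6), and the groups overlapped. The log2 fold change of -0.68 ± 0.22 was called at an adjusted p of 0.00942, but the call was lost without the 2 EC pools that stood apart (log2 fold change -0.60, adjusted p = 0.0204), with genes limited to those with at least 10 counts in at least 20 pools (adjusted p = 0.0103) and under ERCC scaling (-0.23, adjusted p = 0.451). The 2 HC pools with sympathetic markers above 1000 CPM had the highest Gata3 levels of the HC pools (104.5 and 143.5 CPM). The other HC pools reached at most 58 CPM, below the EC median. Gata3 kept its call without these 2 HC pools and without all 4 pools that stood apart. In the GFP- pools of the same embryonic day the median was 6.88 CPM in HCs and 10.2 CPM in ECs.

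**Figure D1:**
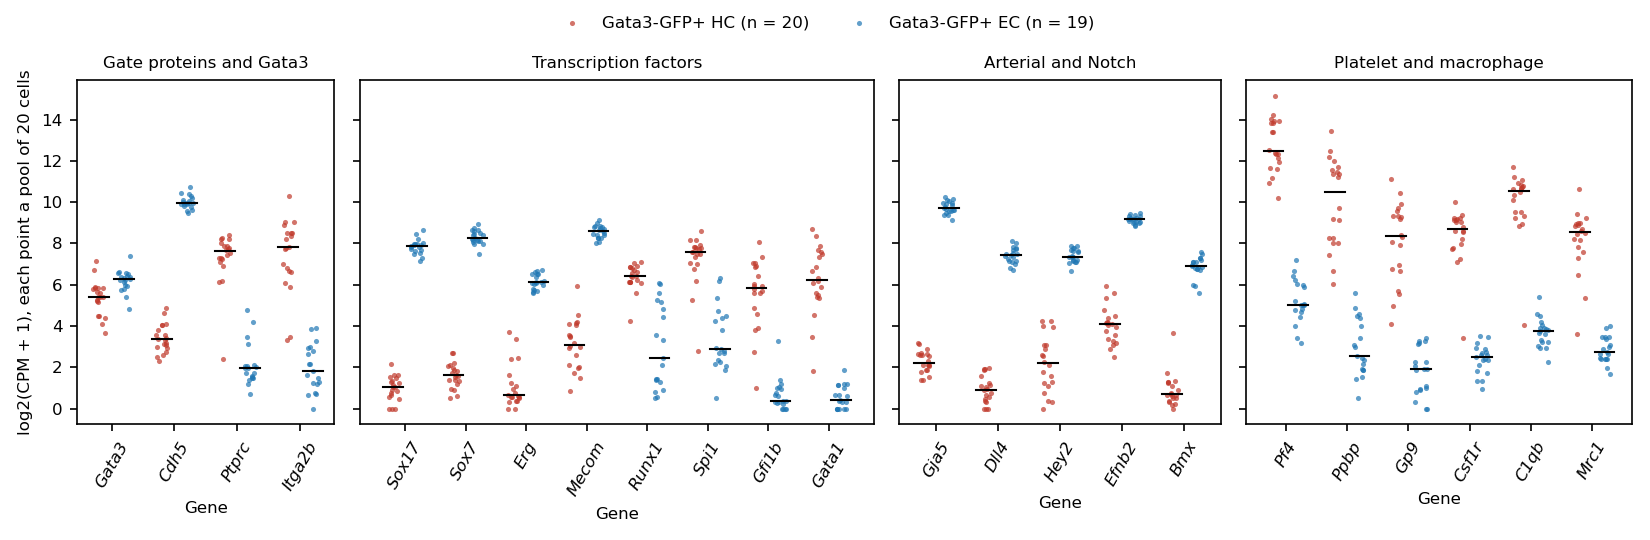
Levels of 23 genes as log2(CPM + 1), with each point a pool of 20 cells (20 Gata3-GFP+ HC pools in red and 19 Gata3-GFP+ EC pools in blue) and a black line at the median. Sox17, Gja5 and Pf4 show no overlap between the populations, whereas Runx1 and Spi1 are spread over a wide range in EC pools.

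The transcription factors of the EHT did not move as 1 group. Of 33 tested, 9 were called higher in HCs and 15 higher in ECs, 8 and 6 of them past 4-fold, and the list's median was -0.46 beside 0.06 for all genes (under ERCC scaling 0.09, with 9 called in each direction). Over all genes tested the shares were 21.8% and 19.1%, and 8.65% and 6.65% past 4-fold. With at least 10 counts in at least 20 pools, 28 were tested, 7 called higher in HCs and 15 higher in ECs. The SoxF factors were the most strongly endothelial. Sox17 (ENSMUSG00000025902, chr1:4490931-4497354 of GRCm38, minus strand) had 0 to 3.45 CPM in HC pools (median 1.05) and 143.03 to 402 CPM in EC pools (median 231) (log2 fold change -7.68 ± 0.25 SE, adjusted p = 6.46e-27). Sox7 (log2 fold change -7.18 ± 0.21 SE, adjusted p = 2.93e-28) and Sox18 (log2 fold change -6.36 ± 0.30 SE, adjusted p = 4.05e-21) showed the same direction, and for all 3 genes every EC pool lay above every HC pool.

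Erg, an ETS factor of endothelium and stem cells, had 0 to 12.1 CPM in HC pools (median 0.561) and 48 to 102.7 CPM in EC pools (median 68.1) (log2 fold change -5.00 ± 0.42 SE, adjusted p = 2.2e-13). Mecom, which encodes the stem cell regulator Evi1, had 0.787 to 60.1 CPM in HC pools (median 7.53) and 255 to 553 CPM in EC pools (median 389) (log2 fold change -5.03 ± 0.33 SE, adjusted p = 1.15e-16). Neither gene's groups overlapped. The related ETS gene Fli1, by contrast, had medians of 151.8 and 179 CPM and was not called (log2 fold change -0.12 ± 0.15, adjusted p = 0.499). Of the complex that Gata2 and Lmo2 form with Tal1, Lyl1 and Ldb1, 4 of 5 members were called higher in ECs. Gata2 had 0 to 53.8 CPM in HC pools (median 10.1) and 33 to 134.9 CPM in EC pools (median 90.5) (log2 fold change -2.68 ± 0.35 SE, adjusted p = 2.81e-08). Lmo2 (-1.49 ± 0.17), Ldb1 (-1.23 ± 0.15) and Lyl1 (-0.95 ± 0.21) were called higher in ECs, the last only without ERCC scaling (-0.09, adjusted p = 0.761), and Tal1 was not called (-0.28 ± 0.30, adjusted p = 0.445). Mllt3, a regulator of stem cell maintenance (-1.64 ± 0.28), and the homeodomain gene Hhex (-1.50 ± 0.21) were called higher in ECs as well, Hhex without the call under ERCC scaling (adjusted p = 0.0424).

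Runx1 (ENSMUSG00000022952, chr16:92601466-92826149 of GRCm38, minus strand), the core binding factor that the EHT requires, had 17.8 to 134.8 CPM in HC pools (median 85.8) and 0.438 to 67.8 CPM in EC pools (median 4.57) (log2 fold change 2.33 ± 0.48 SE, adjusted p = 7.33e-05). On the log scale EC pools covered a wider range than HC pools, and 7 of 19 EC pools lay above the lowest HC pool. That HC pool was 1 of the 2 that stood apart for sympathetic markers, and without these 2 the lowest HC pool had 66.2 CPM and 1 EC pool lay above it. Its partner Cbfb had medians of 78.8 and 90.2 CPM and was not called (adjusted p = 0.247). Spi1, the macrophage and progenitor factor PU.1, had 6.02 to 394 CPM in HC pools (median 193) and 0.452 to 80 CPM in EC pools (median 6.36) (log2 fold change 3.40 ± 0.45 SE, adjusted p = 3.37e-08), with 10 EC pools above the lowest HC pool and 3 above the second lowest (36.9 CPM). Runx1 reached 10 CPM in 8 EC pools and Spi1 in 8, of which 5 had both, and 2 EC pools reached 10 CPM of Myb, a factor of definitive progenitors, both of them with Runx1 above that level. Ptprc reached 10 CPM in 3 EC pools, all 3 with Runx1 above 10 CPM. These counts stand beside Runx1 at 10 CPM in 8 of all 19 EC pools, and whether any blood gene went with it was not tested. Ikzf1 reached that level in 5 EC pools (4 of them with Runx1), Tyrobp in 11 (6), Gfi1 in 6 (3) and Itga2b in 2 (1). Csf1r did so in 2 (1), C1qb in 12 (5) and Pf4 in 17 (7), and Gfi1b and Gata1 in 0.

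Gfi1 and Gfi1b, the repressors of endothelial genes downstream of Runx1, differed from each other in their result. Gfi1 had 0 to 18.5 CPM in HC pools (median 0.4) and 0 to 33.2 CPM in EC pools (median 1.78) and was not called (-1.64 ± 0.79, adjusted p = 0.081). The highest Gfi1 level of any pool was in an EC pool. Gfi1b had 0.997 to 272 CPM in HC pools (median 57.2) and 0 to 8.67 CPM in EC pools (median 0.288) (log2 fold change 6.22 ± 0.58 SE, adjusted p = 4.91e-12), and no EC pool reached 10 CPM. Gata1, the erythroid and megakaryocytic GATA factor, had 2.49 to 411 CPM in HC pools (median 75) and 0 to 2.72 CPM in EC pools (median 0.349) (log2 fold change 7.73 ± 0.56 SE, adjusted p = 2.48e-15). Nfe2, a factor of megakaryocyte maturation (4.60 ± 0.51), Irf8 (5.33 ± 0.38) and Cebpa (5.28 ± 0.62), both of the myeloid lineage, and the zinc finger gene Ikzf1 (3.02 ± 0.49) were called higher in HCs.

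Endothelial genes were nearly uniform in their direction. Of 28 genes for endothelial surface proteins and junctions, 26 were called higher in ECs, all of them past 4-fold, and in 24 every EC pool lay above every HC pool. The list's median was -5.18. Pecam1, an adhesion molecule that HCs also carry, had 16.2 to 124.6 CPM in HC pools (median 45.7) and 592 to 1096 CPM in EC pools (median 836) (log2 fold change -4.00 ± 0.16 SE, adjusted p = 2.81e-23). Tek, the receptor for angiopoietins, had 2.85 to 31.4 CPM in HC pools (median 5.73) and 432 to 876 CPM in EC pools (median 701) (log2 fold change -6.29 ± 0.25 SE, adjusted p = 6.15e-24). Kdr and Flt1, the VEGF receptors, differed by -4.76 ± 0.29 and -5.14 ± 0.31. Cdh2 (N-cadherin, 0.03 ± 0.38, adjusted p = 0.954) and Jam3 (-0.42 ± 0.22, adjusted p = 0.114) were the 2 not called.

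Summed over the 28 genes, the level was 309 to 908 CPM in HC pools (median 477) and 15008 to 20461 CPM in EC pools (median 17764). The sum includes genes that blood cells also express, such as Pecam1 and Esam, so in HC pools it is no measure of endothelial RNA. Esam, a junction protein that is also found on platelets and stem cells, was 1 of the called genes whose pools overlapped, and had 5.48 to 299.6 CPM in HC pools (median 56.2) and 264 to 995 CPM in EC pools (median 724) (log2 fold change -3.06 ± 0.33 SE, adjusted p = 2.12e-10). The counts of Ramp2 and Rasip1 include stretches of exon that other annotated genes share on the same strand (33.4% and 20.4% of their exonic length), so reads there may have been left out of either gene.

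Arterial genes were higher in the EC pools with 1 exception. Of 18 arterial and Notch genes, 17 were called higher in ECs, all past 4-fold, with a median of -4.89, and in 15 the pools did not overlap. The gap junction gene Gja5 had 1.59 to 8.16 CPM in HC pools (median 3.66) and 567 to 1199.6 CPM in EC pools (median 837) (log2 fold change -7.72 ± 0.19 SE, adjusted p = 8.11e-31). Dll4, the arterial Notch ligand, had 0 to 2.85 CPM in HC pools (median 0.892) and 105.5 to 273 CPM in EC pools (median 170.3) (log2 fold change -7.41 ± 0.29 SE, adjusted p = 3.93e-24). The ligand Jag1 (-4.49 ± 0.23), the receptors Notch1 (-3.58 ± 0.26) and Notch4 (-6.02 ± 0.29), and the targets Hey1 (-4.93 ± 0.33) and Hey2 (-4.90 ± 0.36) went the same way. Hes1, a Notch target used by many cell types, was not called, with medians of 41.2 CPM in HC and 54.4 CPM in EC pools (adjusted p = 0.363).

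Of 7 venous genes, 4 were called higher in ECs and 2 higher in HCs. The receptor Ephb4 (log2 fold change -3.17 ± 0.24 SE, adjusted p = 1.68e-14), Flt4 (-5.94 ± 0.23), Emcn (-5.74 ± 0.17) and the apelin receptor Aplnr (-4.15 ± 0.58) were higher in ECs. Nr2f2, which encodes the venous factor COUP-TFII, had 2.99 to 117.5 CPM in HC pools (median 49.1) and 0.569 to 51.1 CPM in EC pools (median 11.2) (log2 fold change 1.67 ± 0.41 SE, adjusted p = 0.00073), and the ranges overlapped. Dab2, an endocytic adaptor that macrophages also express, was higher in HCs as well (2.33 ± 0.27).

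All 21 basement membrane and matrix genes were called higher in ECs, 19 past 4-fold, with a median of -3.96 and 16 without overlap. The type IV collagen gene Col4a1 had 9.8 to 110.3 CPM in HC pools (median 24.9) and 1066 to 1812 CPM in EC pools (median 1291) (log2 fold change -5.45 ± 0.23 SE, adjusted p = 7.04e-23). Fn1, fibronectin, had 25.9 to 507 CPM in HC pools (median 106.9) and 1534 to 3024 CPM in EC pools (median 2137) (log2 fold change -3.96 ± 0.24 SE, adjusted p = 1.56e-17). Nid2 (-1.15 ± 0.29) and Igfbp7 (-2.37 ± 0.66) lost their calls under ERCC scaling (adjusted p = 0.367 and 0.012).

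Imprinted genes, which are tied to growth and to stem cell quiescence, were called in part. Of 18 tested, 7 were called higher in ECs, 1 higher in HCs and 10 in neither direction (median -0.62, and -0.06 under ERCC scaling). Without the 4 pools that stood apart, 10 were called higher in ECs, 1 higher in HCs and 7 in neither direction, and the same counts were found without the 2 HC pools alone. The noncoding RNA H19 had 88.2 to 498 CPM in HC pools (median 362) and 4189 to 7605 CPM in EC pools (median 6117) (log2 fold change -4.14 ± 0.15 SE, adjusted p = 2.98e-25). Igf2, the growth factor gene beside it, had 87.7 to 892 CPM in HC pools (median 491) and 6128 to 10181 CPM in EC pools (median 7109) (log2 fold change -3.93 ± 0.16 SE, adjusted p = 1.71e-23), although 62.8% of its exonic length is shared with another annotated gene. Plagl1, a zinc finger regulator of the imprinted network, followed (-4.70 ± 0.26). Cdkn1c, which encodes the cell cycle inhibitor p57, had 37.9 to 1172 CPM in HC pools (median 202) and 232 to 564 CPM in EC pools (median 382) and was not called (-0.23 ± 0.29, adjusted p = 0.529, with the sign turned to 0.39 under ERCC scaling).

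**Figure D2:**
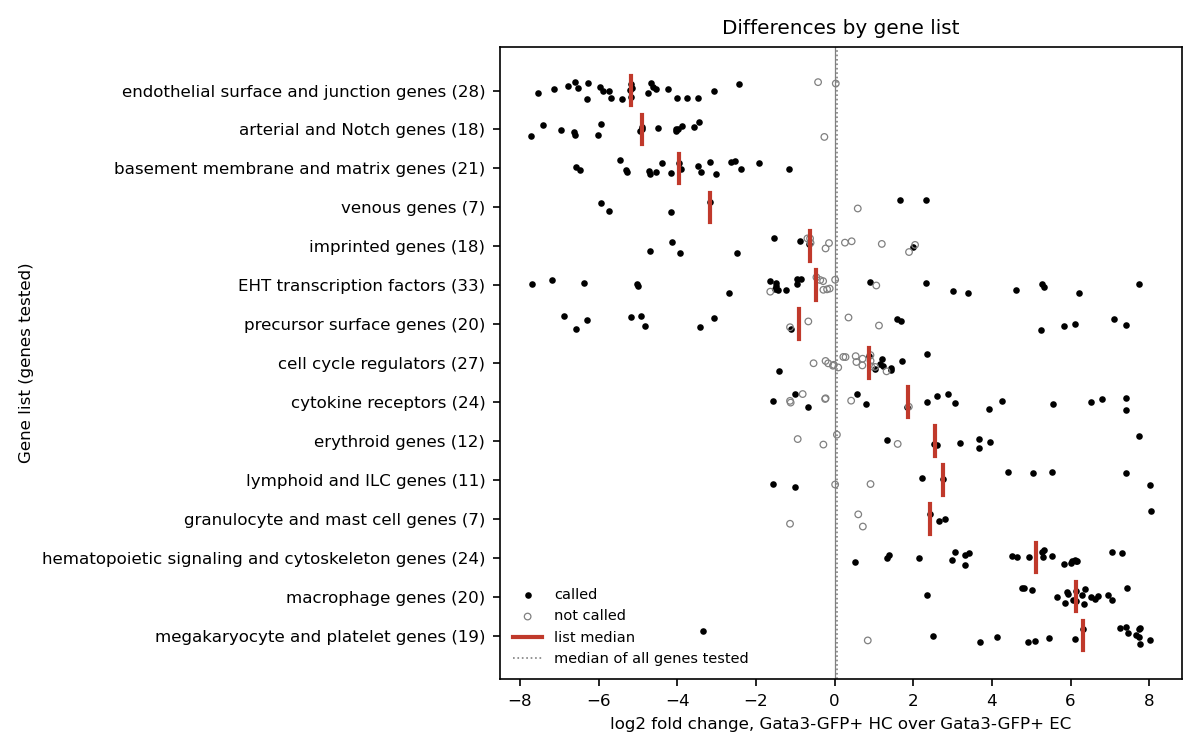
Log2 fold changes of HC over EC pools for 15 gene lists, with each point a gene (filled where called and open where not), a red line at the list's median and the number of genes tested in brackets. Endothelial, arterial and matrix genes lie far to the left and macrophage and megakaryocyte genes far to the right, while imprinted genes, EHT factors and precursor surface genes fall on both sides of the dotted median of all genes (0.06).

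Hematopoietic genes were nearly uniform in the opposite direction. All 24 genes for hematopoietic signaling and the leukocyte cytoskeleton were called higher in HCs, 21 past 4-fold, with a median of 5.11, and in 12 every HC pool lay above every EC pool. Coro1a, an actin regulator of leukocytes, had 515 to 1161 CPM in HC pools (median 705) and 5.51 to 110.004 CPM in EC pools (median 16.8) (log2 fold change 4.52 ± 0.31 SE, adjusted p = 8.01e-16). Lcp2, the adaptor SLP-76 that immune cells and platelets share, had 103.9 to 468 CPM in HC pools (median 201) and 0.254 to 5.47 CPM in EC pools (median 1.35) (log2 fold change 7.05 ± 0.27 SE, adjusted p = 2.52e-24). Fermt3, the kindlin that activates integrins in blood cells (5.32 ± 0.33), and Rac2, the hematopoietic Rac GTPase (6.11 ± 0.29), did not overlap either. Inpp5d, which encodes the phosphatase SHIP1, had the smallest difference of the list (0.53 ± 0.14) and was not called by the test in scanpy that the study used (adjusted p = 0.0179), in which 22 of the 24 were called.

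Which lineage these HC pools held was read from lists of lineage genes. All 20 macrophage genes were called higher in HCs, all past 4-fold, with a median of 6.14. Csf1r, the receptor for macrophage colony-stimulating factor, had 9.63 to 1036 CPM in HC pools (median 415) and 0.904 to 10.53 CPM in EC pools (median 4.61) (log2 fold change 6.51 ± 0.37 SE, adjusted p = 1.28e-18). C1qb, a complement component made by tissue macrophages, had 15.7 to 3330.5 CPM in HC pools (median 1509) and 3.72 to 40.9 CPM in EC pools (median 12.7) (log2 fold change 6.70 ± 0.39 SE, adjusted p = 4.16e-18). For both genes 1 HC pool lay below the highest EC pool, and Lyz2, lysozyme, was the 1 macrophage gene without overlap (4.75 ± 0.36). Summed over the list, HC pools held 263 to 13282 CPM (median 6404) and EC pools 33.9 to 245 CPM (median 93.8).

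Of 19 megakaryocyte and platelet genes, 17 were called higher in HCs, all past 4-fold, with a median of 6.31. Among the 17 was Itga2b, whose protein chose the cells and whose call is no finding. Pf4 (ENSMUSG00000029373, chr5:90772435-90773383 of GRCm38, plus strand), platelet factor 4, had 1169 to 36248 CPM in HC pools (median 5671) and 8.1 to 143.98 CPM in EC pools (median 31.8) (log2 fold change 7.74 ± 0.48 SE, adjusted p = 2.52e-17), without overlap. Ppbp, the precursor of platelet basic protein, had 65.8 to 11029 CPM in HC pools (median 1619.9) and 0.452 to 48.2 CPM in EC pools (median 4.89) (log2 fold change 7.75 ± 0.70 SE, adjusted p = 1.71e-12). The subunits of the von Willebrand factor receptor, Gp1ba (4.93 ± 0.51), Gp1bb (7.77 ± 0.59), Gp5 (7.47 ± 0.61) and Gp9 (7.25 ± 0.62), were all higher in HCs, but 92.9% of the exonic length of Gp1bb is shared with Sept5 on the same strand. Vwf, a gene of both megakaryocytes and endothelium, went the other way (log2 fold change -3.35 ± 0.35 SE, adjusted p = 6.89e-11), and it made up most of the list's summed level in EC pools (1315 to 2886 CPM, median 1716). In HC pools the sum ran from 1863 to 70245 CPM (median 13139).

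Promoters of members of both lists are shown, since GATA and ETS factors were among the genes that differed. For 13 of the 17 megakaryocyte genes called higher in HCs and 14 of the 26 endothelial genes called higher in ECs RefSeq gave a promoter (GRCm38.p6), and the 250 bases before the start were searched on both strands for AGATAA or TGATAA (the GATA letters) and for AGGAAG (the ETS letters). The GATA and ETS letters can share their bases AG. Among all 32851 promoters of the table, 16.6% held the GATA letters, 29.5% the ETS letters and 4.72% both. GATA letters were in 4 megakaryocyte promoters (Clec1b, Gp1ba, Gp5 and Gp6) and in 2 endothelial ones (Egfl7 and Tjp1), and ETS letters in 7 and 8. Under 80% of either list had an entry, so no share is compared with the background. Each sequence below reads 5′ to 3′ on the gene's own strand with matches in capitals, where TTATCA or TTATCT, for the first motif, or CTTCCT, for the second, is the opposite-strand form. The 2 megakaryocyte promoters with both motifs come first, then Itga2b as the gene of the CD41 gate, then Flt1 and Robo4 as endothelial genes with ETS letters.
Gp1ba, chr11:70638872-70639121, plus strand: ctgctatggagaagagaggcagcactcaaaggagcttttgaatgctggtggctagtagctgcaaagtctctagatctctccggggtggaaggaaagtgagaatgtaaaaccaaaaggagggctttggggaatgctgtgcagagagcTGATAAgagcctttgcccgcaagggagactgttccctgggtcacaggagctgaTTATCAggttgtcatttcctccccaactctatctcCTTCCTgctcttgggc
Gp5, chr16:30310782-30311031, minus strand: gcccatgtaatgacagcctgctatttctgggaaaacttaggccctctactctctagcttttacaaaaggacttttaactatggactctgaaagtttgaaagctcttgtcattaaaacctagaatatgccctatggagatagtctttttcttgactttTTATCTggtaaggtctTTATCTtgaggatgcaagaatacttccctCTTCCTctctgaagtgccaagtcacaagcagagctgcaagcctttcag
Itga2b, chr11:102469884-102470133, minus strand: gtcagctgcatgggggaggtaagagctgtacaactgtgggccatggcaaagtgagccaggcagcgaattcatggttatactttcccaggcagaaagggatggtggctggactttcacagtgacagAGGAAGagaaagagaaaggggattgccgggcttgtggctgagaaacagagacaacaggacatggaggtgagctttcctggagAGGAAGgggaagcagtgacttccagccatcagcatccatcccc
Flt1, chr5:147726012-147726261, minus strand: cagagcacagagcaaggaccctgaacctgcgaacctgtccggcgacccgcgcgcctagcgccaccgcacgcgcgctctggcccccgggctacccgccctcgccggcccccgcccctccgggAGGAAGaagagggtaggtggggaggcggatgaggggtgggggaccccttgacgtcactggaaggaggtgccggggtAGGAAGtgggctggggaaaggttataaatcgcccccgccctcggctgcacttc
Robo4, chr9:37401722-37401971, plus strand: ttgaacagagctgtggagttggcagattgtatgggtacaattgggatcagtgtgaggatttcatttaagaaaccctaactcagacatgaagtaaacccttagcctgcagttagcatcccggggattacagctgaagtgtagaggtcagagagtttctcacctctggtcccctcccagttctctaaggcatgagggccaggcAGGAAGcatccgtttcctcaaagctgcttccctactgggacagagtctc
In Gp1ba the nearer GATA letters began 51 bases and the ETS letters 16 bases before the start, and in Gp5 77 bases and 48 bases before it. The ETS letters nearest to the start began 43 bases before it in Itga2b, 53 in Flt1 and 49 in Robo4. Thus the ETS letters were found on both sides of the comparison, in genes of which Itga2b was higher in HCs (6.11 ± 0.54) and Robo4 higher in ECs (-5.70 ± 0.32). A match describes these letters and not a bound site.

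The HC pools differed widely among themselves in the balance of the 2 lineages. The ratio of the megakaryocyte to the macrophage sum ran from 0.163 to 268 (median 2.70), and in 7 of 20 pools the macrophage sum was the larger. Across the 20 pools the log2 sums were negatively related (Pearson r = -0.696, permutation p = 8e-05, and Spearman rho = -0.781, permutation p = 0.0001, the only relation of this kind computed). Without the 2 pools farthest from the median macrophage sum, r was -0.614. Both sums are shares of the same library, and each pool held 20 cells from a gate on CD41 or CD45. Itga2b, the gene of the CD41 gate, is itself in the megakaryocyte list. How much of the relation comes from these was not tested.

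A single HC pool stood at the extreme. Its Pf4 level of 36248 CPM and its Itga2b level of 1278 CPM were the highest of all HC pools, and its Csf1r (9.63 CPM), Spi1 (6.02 CPM) and Ptprc (4.21 CPM) levels the lowest, with Runx1 at 117.7 CPM. Another HC pool showed the reverse, with the highest Ptprc (337 CPM) and Csf1r (1036 CPM) beside the lowest Itga2b (8.97 CPM) and Gfi1b (0.997 CPM). Over the genes with a mean of at least 20 CPM, however, the median SD of log2(CPM + 1) between pools was 0.506 in HCs and 0.508 in ECs.

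**Figure D3:**
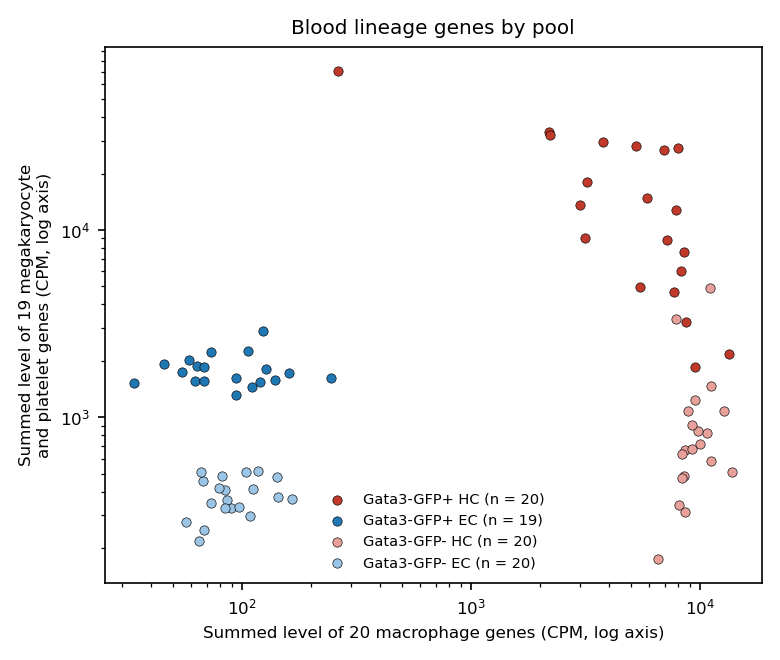
Summed level of 19 megakaryocyte and platelet genes against that of 20 macrophage genes by pool, in CPM on log axes, for the 4 E10.5 populations. Gata3-GFP+ HC pools spread from 1863 to 70245 CPM of megakaryocyte genes, whereas Gata3-GFP- HC pools lie between 175 and 4884 CPM at macrophage sums of 6560 to 13766 CPM.

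Genes of other blood lineages were low or mixed. Of 12 erythroid genes tested, 8 were called higher in HCs (median 2.56), among them Gata1 and the erythropoietin receptor Epor (2.59 ± 0.48). The embryonic globin Hbb-y had 0 to 103.8 CPM in HC pools (median 7.42) and 0 to 121.5 CPM in EC pools (median 6.45) and was not called (adjusted p = 0.953). Near-identical globin genes share reads, so their values are uncertain. Of 7 granulocyte and mast cell genes tested, 4 were called higher in HCs, and the myeloperoxidase gene Mpo had medians of only 3.25 and 2.13 CPM (log2 fold change 2.43 ± 0.65 SE, adjusted p = 0.00161), a call that was not made by DESeq2 (adjusted p = 0.0557), by the scanpy test (adjusted p = 0.218) or with the EC pool outside the quality limits added (adjusted p = 0.0733). Of 11 lymphoid and innate lymphoid genes, 7 were called higher in HCs and 2 higher in ECs. Il7r, the interleukin-7 receptor and 1 of the 7, had 0 to 64.6 CPM in HC pools (median 4.14) and 0 to 0.421 CPM in EC pools (median 0) (log2 fold change 7.40 ± 0.98 SE, adjusted p = 2.78e-08). Genes near 0 in ECs, such as Il7r, entered the test through the HC pools and could be called in that direction only. With at least 10 counts in at least 20 pools, 5 lymphoid genes were tested, 1 called higher in HCs and 2 higher in ECs. The same filter gave 2 of 4 erythroid and 2 of 5 granulocyte and mast cell genes higher in HCs.

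Precursor surface genes divided between the populations. Of 20 tested, 7 were called higher in HCs and 9 higher in ECs (median -0.89, and -0.13 under ERCC scaling, with 7 in each direction). These counts include the genes of the sort gates, Ptprc and Itga2b among the 7 and Cdh5 among the 9, whose calls are no finding. Without the 4 pools that stood apart 8 were called higher in ECs. With at least 10 counts in at least 20 pools, 14 were tested, 5 called higher in HCs and 7 higher in ECs. Cd34 had 8.14 to 172 CPM in HC pools (median 31.1) and 1241 to 2097 CPM in EC pools (median 1435) (log2 fold change -4.92 ± 0.33 SE, adjusted p = 1.81e-16), and Procr, which encodes the endothelial protein C receptor, also marked the ECs (-4.83 ± 0.53). Kit, the receptor for stem cell factor, had 0.591 to 77.4 CPM in HC pools (median 23.8) and 16.5 to 140.3 CPM in EC pools (median 53.1) and was not called (-1.13 ± 0.39, adjusted p = 0.014), although DESeq2 (adjusted p = 0.0052), the scanpy test (adjusted p = 0.0032) and 1 fit of the 4 E10.5 populations (adjusted p = 0.005) called it higher in ECs. Slamf1, which encodes CD150, had 0 to 199.9 CPM in HC pools (median 21.5) and 0 to 1.07 CPM in EC pools (median 0) (log2 fold change 7.10 ± 0.78 SE, adjusted p = 3.47e-10), and Cd48 was higher in HCs too (5.82 ± 0.50). Both were near 0 in ECs, so they entered the test through the HC pools and could be called in that direction only. Cd47, a signal against phagocytosis, was the 1 member with every HC pool above every EC pool (1.58 ± 0.17).

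Among 24 cytokine receptors, 14 were called higher in HCs and 3 higher in ECs (median 1.86). Il10ra (6.81 ± 0.38), Csf2rb, the shared chain of the interleukin-3 and GM-CSF receptors (5.56 ± 0.43), and Il6ra (4.26 ± 0.40) were among the first group. The 3 higher in ECs were the shared interleukin chains Il6st (-1.02 ± 0.20) and Il2rg (-1.57 ± 0.20) and the interferon receptor Ifnar1 (-0.67 ± 0.16), of which Il6st lost its call under ERCC scaling (adjusted p = 0.25) and Ifnar1 lost it and turned to 0.09. About 30.5% of the exonic length of Il2rg is shared with another gene.

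Cell cycle genes differed by less. Of 27 regulators, 9 were called higher in HCs and 1 higher in ECs, with a median of 0.88, and ERCC scaling raised these to 22 and 1. Ccna2, cyclin A2 (1.20 ± 0.27), Cdkn2d, an inhibitor of Cdk4 and Cdk6 (2.34 ± 0.32), and Rb1, the retinoblastoma gene (1.44 ± 0.27), were higher in HCs. Cdkn1b, which encodes the inhibitor p27, had 6.06 to 59.2 CPM in HC pools (median 13.1) and 25.6 to 71.1 CPM in EC pools (median 45.4) (log2 fold change -1.41 ± 0.20 SE, adjusted p = 1.91e-07) and was the 1 regulator higher in ECs. Mki67, the proliferation marker, had medians of 143.6 and 87.7 CPM and was not called (adjusted p = 0.0165), but was called higher in HCs without the 2 EC pools that stood apart (adjusted p = 0.00757), in the scanpy test (adjusted p = 0.00766), in 1 fit of the 4 E10.5 populations (adjusted p = 0.00164) and under ERCC scaling (adjusted p = 0.000105). Of 43 S phase genes, 25 were called higher in HCs and 1 higher in ECs (median 0.93), and of 54 G2/M genes, 13 and 2 (median 0.53), none past 4-fold. The share of the G2/M genes called higher in HCs was close to the 21.8% of all genes tested. Under ERCC scaling 37 and none of the S phase genes (median 1.53, 8 past 4-fold) and 38 and none of the G2/M genes (median 1.33, 5 past 4-fold) were called. Without the 4 pools that stood apart, 10 regulators and 29 S phase genes were called higher in HCs.

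The 12 largest differences higher in HCs, among called genes with at least 10 counts in all HC pools and a mean of at least 50 CPM there, were F2rl2, Slc14a1, Cited4, Gp1bb, Ppbp, Pf4, Treml1, Rgs18, Gp5, Bin2, Plek and Gp9, with log2 fold changes from 7.25 to 7.83. F2rl2, a thrombin receptor of platelets, had 8.47 to 1663 CPM in HC pools (median 293) and 0.226 to 5.25 CPM in EC pools (median 2.17) (log2 fold change 7.83 ± 0.53 SE, adjusted p = 4.35e-16). Slc14a1 encodes a urea transporter and Plek the platelet protein pleckstrin. Chosen in the same way, the 12 largest higher in ECs were AU021092, Gkn3, Akr1c14, Agr2, Gja5, Sox17, Ptprb, Edn1, Dll4, Htra1, Mall and Mmrn2, from -7.33 to -8.11. Gkn3, a gastrokine gene with arterial expression, had 0 to 1.11 CPM in HC pools (median 0.387) and 12.5 to 229.9 CPM in EC pools (median 129.004) (log2 fold change -8.03 ± 0.41 SE, adjusted p = 4.34e-20), and Edn1 encodes endothelin 1.

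Whether these differences were particular to the GFP+ fraction was tested as an interaction with the matching Gata3-GFP- pools (20 HC and 20 EC pools, GFP- with the same surface gates). Of 17851 genes tested, the HC to EC difference was called more positive in GFP+ pools in 2524 (14.1%) and more negative in 1536 (8.6%). For megakaryocyte and platelet genes, 16 of 19 were called more positive and none more negative. The interaction was 4.14 on the log2 scale for Pf4, whose median was 509 CPM in GFP- HC pools and 5671 CPM in GFP+ HC pools, and 6.80 for Ppbp. Macrophage genes had no positive and 3 negative calls of 20. In GFP- HC pools the macrophage sum exceeded the megakaryocyte sum in 20 of 20 pools, at a median ratio of 0.0767.

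Arterial genes moved apart between the fractions in the other direction. Of 18, 9 had a called negative and 2 a called positive interaction, and for Gja5 (-5.21) the median was 837 CPM in GFP+ and 6.12 CPM in GFP- EC pools. Venous genes had 6 positive calls of 7, the largest for Nr2f2 (7.15). Its median was 11.2 CPM in GFP+ and 186 CPM in GFP- EC pools, and 49.1 CPM in GFP+ and 2.30 CPM in GFP- HC pools. In 11 of 18 imprinted genes the interaction was called positive, as for Mest (4.61), with a median of 341 CPM in GFP+ and 28.8 CPM in GFP- HC pools. Runx1 (-3.51) and Spi1 (-3.51) were called negative, and their medians in EC pools were 4.57 and 6.36 CPM in GFP+ and 1.73 and 3.04 CPM in GFP- pools, and the 4 granulocyte genes Mpo, Prtn3, S100a8 and S100a9 were called negative as well. Over EHT factors, 12 of 33 were called negative and 2 positive.

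**Figure D4:**
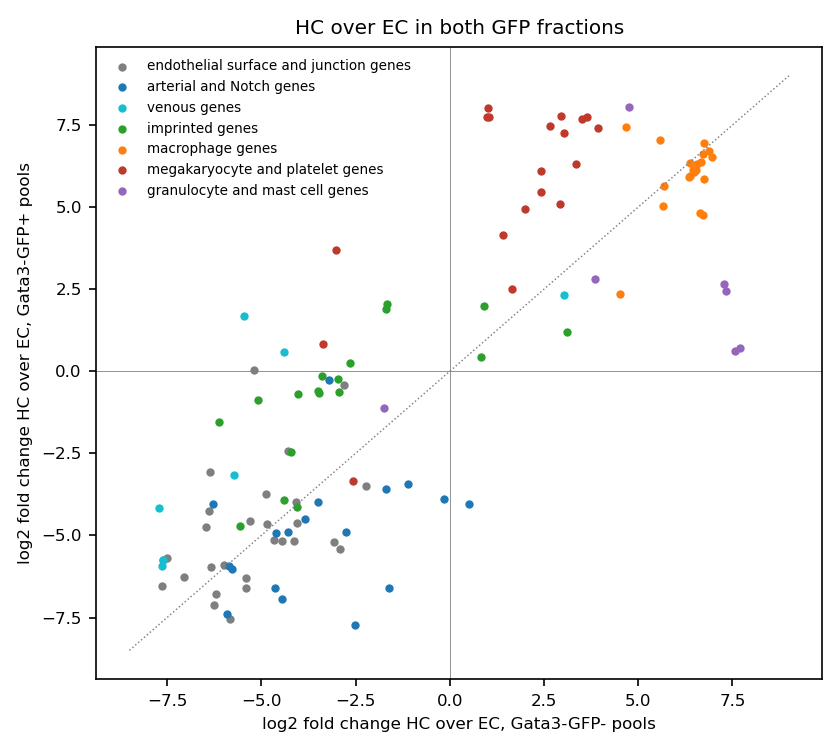
Log2 fold change of HC over EC in Gata3-GFP+ pools (vertical axis) against that in Gata3-GFP- pools (horizontal axis), with each point a gene of 7 lists and a dotted line where both are equal. Most megakaryocyte and imprinted genes lie above the line, arterial genes with a called interaction such as Gja5 below it, and macrophage genes near it.

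Markers of other cell types of the AGM were read beside these results. The sum of sympathetic and neural crest markers ran from 7.58 to 2631 CPM in HC pools (median 200.1) and from 336 to 887 CPM in EC pools (median 470.5), the latter mainly from Stmn2 (log2 fold change -3.06 ± 0.55 SE, adjusted p = 1.04e-05) and Isl1 (-1.66 ± 0.42, with an adjusted p of 0.014 under ERCC scaling), and 8 of the 16 markers had a median of 0 in ECs. Of 15 tested, 11 were called higher in HCs and 2 higher in ECs, and 7 of 13 tested were still called higher in HCs without the 4 pools that stood apart. Markers near 0 in ECs entered the test through the HC pools, which favors calls in that direction. With at least 10 counts in at least 20 pools, 4 were tested, and 2 were called in each direction. Th, tyrosine hydroxylase of sympathetic cells, had 0 to 401 CPM in HC pools (median 1.55) and 0 to 1.05 CPM in EC pools (median 0). Mesenchymal markers summed to 39.4 to 1616 CPM in HC pools (median 540.8) and 49.1 to 4320 CPM in EC pools (median 295), with 5 of 16 called higher in HCs and 10 of 15 without the 4 pools.

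The sum of surface ectoderm markers ran from 2.75 to 312 CPM in HC pools (median 23.1) and from 0 to 9.13 CPM in EC pools (median 1.09). At these EC levels a marker could enter the test only through the HC pools. That 7 of 7 tested were called higher in HCs therefore adds nothing to the sums. With at least 10 counts in at least 20 pools, 0 were tested. Mesonephric epithelium markers summed to 2.99 to 394 CPM in HC and 52 to 157.3 CPM in EC pools. Of 11 tested, 3 were called higher in HCs and 2 higher in ECs (3 of 10 in each direction without the 4 pools). The counts among the 11 are near the shares of all genes tested (21.8% and 19.1%). The duct genes Pax2 and Pax8 had at most 6 and 9 counts in any HC pool. Of 4 germ cell markers tested, Ifitm3 was called higher in ECs. Tfap2b, which belongs to the sympathetic list and had the largest positive interaction, had 0 to 61.1 CPM in HC pools (median 13.4) and 0 to 0.421 CPM in EC pools (median 0) (log2 fold change 7.37 ± 0.72 SE, adjusted p = 1.47e-11). The part of such cells in the differences above was not tested.

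**Figure D5:**
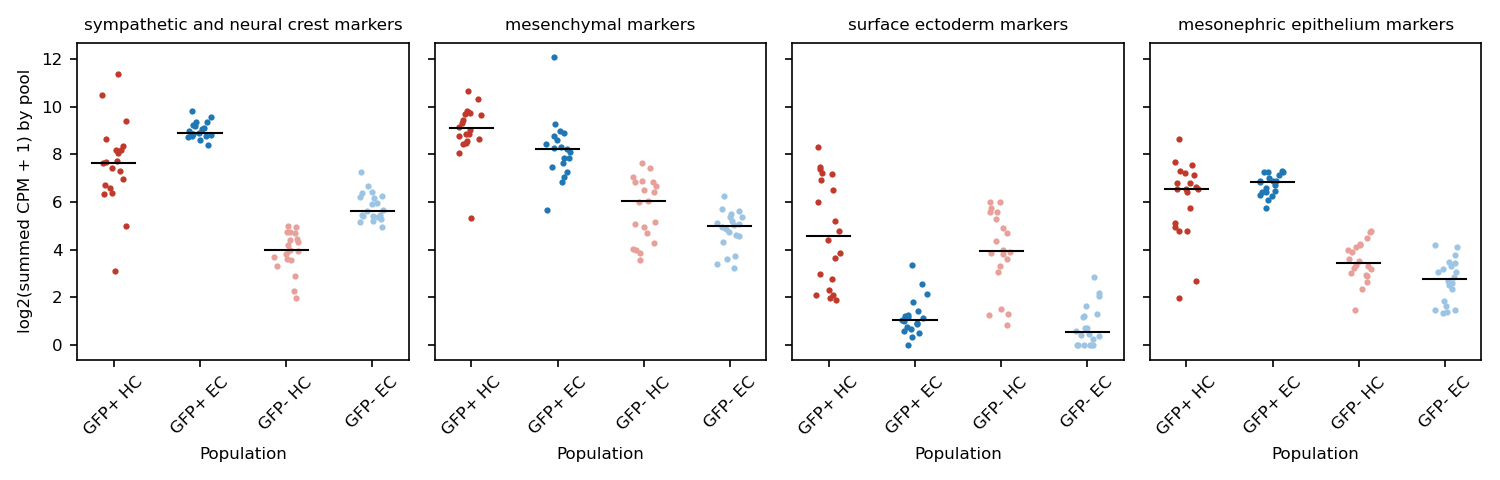
Summed level of 4 lists of markers of other cell types as log2(CPM + 1), with each point a pool and a black line at the median, for the 4 E10.5 populations. Surface ectoderm markers reach 312 CPM in Gata3-GFP+ HC pools and 9.13 CPM in Gata3-GFP+ EC pools, and 2 Gata3-GFP+ HC pools exceed 1000 CPM of sympathetic markers.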

How the data were processed

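Libraries were made by Smart-seq2 from pools of 20 cells and sequenced as single-end reads. The authors deposited 1 table of raw read counts per gene, made with HTSeq, with 46078 Ensembl genes and 92 ERCC spike-in RNAs. The study's methods name STAR as the aligner, whereas the submitters' processing notes list GSNAP, HTSeq 0.5.3p3 and mm10, and which made the table was not settled. Strand and overlap settings are not given in the sources used here. Ambiguous reads stayed out of all totals and tests (a median of 17.5% of reads in HC and 15.1% in EC pools), as did reads on no feature (9.78% and 15.4%) and unaligned reads (25.7% and 23.8%). No 2 pools held identical counts.

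Pools past 4 of the study's quality limits entered. Its further limit, on the number of high-coverage genes, was not applied, since the coverage it means is not given, and the pools used had at least 9888 genes with 10 counts. A gene was tested where 5 or more pools of the fit had 10 or more counts on it, with edgeR 4.0.16 (robust quasi-likelihood fit, TMM, Benjamini-Hochberg over all genes tested, R 4.3.3). The interaction was tested in 1 fit of the 4 E10.5 populations, from which the printed CPM levels also come. SE is the log2 fold change divided by the root of the F statistic. Single values per pool were compared with two-sided permutation tests (scipy 1.17.1). Gene positions and shared exons came from GENCODE M21, which held 45143 of the gene IDs. Named genes are those of 21 lists (360 genes) that a result turned on, the 12 largest in each direction and the 6 largest interactions in each direction, under the limits stated with the results. Genes may stand in more than 1 list. The values of 1 list gene are not reported here. The members and lists were chosen with earlier results of these data known. In data simulated from these pools, 46 of 99 genes changed by 2-fold and 59 of 94 changed by 4-fold were called, as were 2 of 15536 unchanged genes. Only these few genes were changed, with both directions set alike, whereas 40.9% of genes were called in the data themselves. The simulation therefore gives no rate of false calls for the comparison of HCs with ECs. The alternatives were other scalings, filters, tests (DESeq2 1.42.0 and scanpy 1.11.5) and samples.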

Additional observations from a re-analysis of the deposited data

Results flagged for a closer look

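The difference between HCs and ECs itself differed between the GFP+ and the GFP- fraction (interaction test in edgeR, adjusted p under 0.01) in 2524 genes in the positive and 1536 genes in the negative direction. On the log2 scale the largest positive interactions were 8.69 for Tfap2b, 8.30 for Bmp4, which encodes a bone morphogenetic protein, 7.28 for Apold1, 7.22 for Cmbl, 7.15 for Nr2f2 and 7.03 for Gp6, the platelet collagen receptor. Bmp4 had a median of 34.5 CPM in GFP+ and 0.293 CPM in GFP- HC pools, beside 6.35 and 53.02 CPM in the EC pools. Apold1 and Cmbl were likewise higher in GFP- than in GFP+ EC pools at the median (97.2 against 22.9 CPM and 19.8 against 0.254 CPM). In HC pools both were higher in GFP+ than in GFP- pools (13.3 against 0.363 CPM and 5.45 against 0.0499 CPM). Gp6 and Tfap2b, by contrast, had medians under 1 CPM in all populations but the GFP+ HCs (40.05 and 13.4 CPM).

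The largest negative interactions were -7.32 for St8sia6, a sialyltransferase, -7.16 for Syt15, -7.15 for Gkn3, -7.08 for Naip6, a gene of the NAIP family of innate sensors, -6.90 for S100a9 and -6.87 for S100a8, which encode the calprotectin subunits of granulocytes. In the first 4 genes the GFP+ EC pools had medians of 59.95, 41.2, 129.004 and 33.5 CPM and the GFP- EC pools medians of 0.351, 0, 0.329 and 0 CPM. Members of the Naip family are close copies of each other, so the value of Naip6 is uncertain. S100a8 and S100a9 ranged up to 15239 and 9929 CPM in GFP- HC pools, at medians of 144.1 and 29.1 CPM, and up to 103.8 and 42.7 CPM in GFP+ HC pools.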

How the results depend on the processing

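No paired analysis was possible because the columns of the count table carry no pool number, so no replicate block could be fitted. Scaling to ERCC totals gave 7111 genes called higher in HCs and 1272 higher in ECs, 2218 and 689 past 4-fold, and 5241 positive and 519 negative interactions, since it shifts all log2 fold changes toward HCs (median 0.78). With no filter beyond 1 count, 2862 and 1847 genes passed 4-fold among 32826 tested, and with at least 10 counts in at least 20 pools 602 and 679 among 12130, fewer genes being tested. All other alternatives kept these counts within 1.5 times, including DESeq2 (3785 and 3376 called, 6593 of the 6654 main calls among them), the scanpy test (3589 and 3446) and, chosen after seeing the data, leaving out the 4 pools that stood apart (3451 and 3084 among 15939 tested, 6194 shared calls). The difference in the gene to ERCC ratio was 1.25 over all pools, 0.83 as the median over 19 ERCC RNAs and 0.986 without the 4 pools. The difference in detected genes was 915 over all pools (permutation p = 0.177) and 134.9 without the 4 pools (permutation p = 0.729).

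For genes named in the text, 1485 of 1527 values under alternatives kept direction and call. Under ERCC scaling the sign turned for Apold1 (0.38), Cbfb (0.43), Cdkn1c (0.39), Fli1 (0.60), Hes1 (0.37), Ifnar1 (0.088), Jam3 (0.33) and Tal1 (0.086), of which Ifnar1 alone was called in the main test. Cdh2, with no called difference, turned to -0.022 with scran size factors, -0.20 in the scanpy test, -0.12 without the 2 HC pools, -0.044 without the 2 EC pools and -0.20 without all 4. Hbb-y turned to -0.51 and S100a8 to -0.17 in the scanpy test, Hbb-y to -0.041 without the 2 EC pools and S100a8 to -0.037 without the 2 HC pools. The cause was not tested. The depth of 1400824 to 16004756 counts per pool limits genes near 10 counts, and intervals between pools cover no spread between embryos.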

Other observations

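Gene families picked after their values were seen, by symbol, add to the picture of both populations. Their counts stand beside 21.8% of all genes tested called higher in HCs and 19.1% called higher in ECs. Of 84 ribosomal protein genes, 62 were called higher in HCs and 1 (Rps27) higher in ECs, by a median log2 fold change of only 0.32 (1.05 under ERCC scaling). Of 38 proteasome subunit genes, 32 were called higher in HCs and none higher in ECs (median 0.46, and 1.23 under ERCC scaling), including Psmb8 and Psmb9 of the immunoproteasome, and of 36 NADH dehydrogenase subunit genes 24 and none (median 0.33, and 1.05 under ERCC scaling). Receptors of innate immunity were also on the HC side, with 7 of 9 toll-like receptor genes called higher in HCs (median 5.11). Tlr3, a receptor for double-stranded RNA, was the 1 called higher in ECs. Of 12 P2 receptor genes, 8 were called higher in HCs, among them P2rx1 and P2ry12 of platelets, and P2rx2 and P2ry2 higher in ECs.

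Among families of the EC side, 5 of 6 Gimap genes, small GTPases better known from lymphocytes, were called higher in ECs and none higher in HCs (median -1.91). Of 25 Hox genes, 10 were called higher in ECs, all from the HoxA, HoxB and HoxD clusters (among them Hoxa9, Hoxa10 and Hoxb4), and 4 higher in HCs, of which 3 (Hoxc4, Hoxc8 and Hoxc9) lie in the HoxC cluster and 1 (Hoxd10) in HoxD. For Hox genes the median was -0.79, and under ERCC scaling -0.32. Of 19 Fox genes, 8 were called higher in ECs and 1 (Foxd2) higher in HCs (median -0.43, and 0.08 under ERCC scaling). These families were not tested as sets.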
